A study of Mus musculus with 6 samples.

Results

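The tetraspanins of mouse platelets were examined in RNA-seq libraries of platelets from BMT control and pre-AML mice. The members were the rows of the deposited table that carry the symbols Cd9, Cd63, Cd151, Cd37, Cd81, Cd82, Tspan9, Tspan32, Tspan33 and Tspan15. All 10 symbols were found among the 14975 genes of the table. They were listed by name and not by a threshold on their values.

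Tetraspanins are small membrane proteins with short intracellular ends and a small and a large extracellular loop. They bind each other and selected partners, mainly integrins, immunoglobulin-type proteins and proteases, and so gather these partners into patches of the membrane. In platelets they are found on the surface beside integrin αIIbβ3 and in the membranes of α granules, dense granules and lysosomes. Platelets have no nucleus, and their RNA is what the megakaryocyte passed on to them.

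Both groups came from transplanted mice, for which the labels give C57BL/6 as the strain background and the paper CD45.1 or C57BL/6 recipients. Control mice had been irradiated and had received normal bone marrow cells. The paper imaged such controls at the same time points as leukemic mice, and does not give the time for the sequenced ones. Pre-AML mice had received MLL-AF9-induced AML cells, which are GFP+ cells from primary recipients of hematopoietic progenitors infected with a retrovirus that carries MLL-AF9 and GFP, and their blood was taken a week after transplantation. Recipients were female and 8 to 12 weeks old, were irradiated below the lethal dose in the leukemic arm and could therefore keep blood cells of their own. Platelets were purified by removal of cells that carry CD45 or Ter119, the surface markers of leukocytes and of erythroid cells. Neither the labels nor the methods separate platelets of donor origin from those of the host. The labels call the groups WT and AML, and the names control and pre-AML are used here. The series has 3 libraries per group, named control 1 to 3 and pre-AML 1 to 3. Its design text speaks of 2 replicates per group and of pools of 3 to 4 mice, while the methods of the paper speak of independent mice, so that p-values measure the spread between these libraries only.

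Values are FPKM, the reads of a gene relative to its length and to the size of the library, and can be compared between genes. Estimated reads on the listed genes were between 11935395 and 14903107 in 5 libraries and 17767696 in pre-AML 3. Pre-AML 3 stood apart from the rest, at 41.9 on a first principal component on which the other 5 libraries lay between -12.7 and -2.12. Its FPKM values sum to 376148, against 508605 to 541784 in the others, so equal shares of the sum are lower FPKM values in that library. All 12 platelet markers on a list that included Pf4, Gp9 and Tubb1 had a mean of at least 1 FPKM in control platelets. In sum they had between 90382 and 114410 FPKM in control libraries and between 61821 and 92838 FPKM in pre-AML libraries.

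The members are related proteins of 226 to 303 residues, by translation of the GENCODE M21 coding sequences. Over the 45 pairs of members the identity of the aligned proteins was between 16.4% and 44.1%, with a median of 24.9%. Cd9 and Cd81 were the closest pair at 44.1%, and Tspan33 and Tspan15 shared 33.4%. The family is recognised by a Cys-Cys-Gly motif in the large extracellular loop, whose cysteines form disulfide bonds that hold the loop in shape. Codons for this motif were found between residues 145 and 174 in 10 of 10 members, and in 10 of 10 the 45 bases around them span an exon junction. Stretches are shown for the most abundant member, for its closest relative, for the platelet member Tspan9, and for the related pair Tspan33 and Tspan15 that was nearly absent. They are written 5′ to 3′ as in the mRNA with the codons of the motif in capitals, and each lies in coding exons of its gene.

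Cd9: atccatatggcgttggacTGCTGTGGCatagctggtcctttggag

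Cd81: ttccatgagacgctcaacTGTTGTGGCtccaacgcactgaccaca

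Tspan9: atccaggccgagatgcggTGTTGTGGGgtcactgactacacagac

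Tspan33: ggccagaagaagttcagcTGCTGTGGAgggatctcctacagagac

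Tspan15: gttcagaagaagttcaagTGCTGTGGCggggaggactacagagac

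On GRCm38, with the intron between the exons included, the stretch of Cd9 spans chr6:125462171-125462338 on the minus strand and that of Cd81 spans chr7:143066341-143066693 on the plus strand. The stretch of Tspan9 spans chr6:127965798-127966393 on the minus strand, that of Tspan33 chr6:29713523-29716737 on the plus strand and that of Tspan15 chr10:62191552-62193878 on the minus strand. Of the other members, Cd151 lies at chr7:141467392-141471473, Cd37 at chr7:45233632-45239115, Tspan32 at chr7:143005046-143019644, Cd63 at chr10:128900989-128912822 and Cd82 at chr2:93419111-93463140. The gene of Tspan32 ends 33.1 kb before that of Cd81 on chromosome 7. These neighbours differed widely in level in platelets, at 12.4 ± 1.77 FPKM (SD, n = 3) for Tspan32 and 573 ± 45.5 FPKM (SD, n = 3) for Cd81 in control.

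The levels of the members covered a range from 10542 ± 93.4 FPKM (SD, n = 3) for Cd9 in control to values near 0. From high to low mean FPKM, the order in control platelets was Cd9, Cd81, Cd151, Tspan9, Cd63, Cd37, Tspan32, Cd82, Tspan33 and Tspan15, and the same order was found in pre-AML platelets. In control platelets the ranges of the libraries separated each of Cd9, Cd81, Cd151 and Tspan9 from the next member, while Cd63 overlapped with Cd37 and Cd37 with Tspan32. Cd82, Tspan33 and Tspan15 overlapped with their neighbours at the bottom of the order in control, and in pre-AML platelets Cd82 stood above Tspan33 in every library. In both groups 7 of the 10 members had a mean of at least 1 FPKM.

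**Figure D1:**
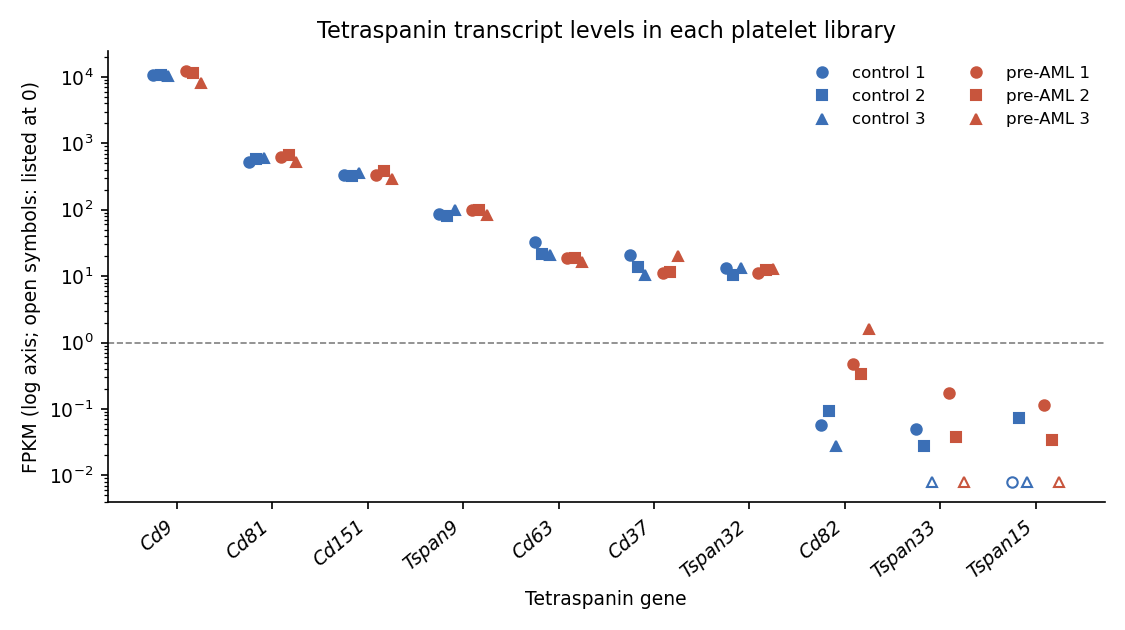
FPKM of each of the 10 members (horizontal axis, ordered by control mean) in each of the 6 libraries, on a log axis, with control in blue and pre-AML in red, open symbols for values listed at 0 and a dashed line at 1 FPKM. Cd9 is at least at 8069.6 FPKM in every library, Cd81, Cd151, Tspan9, Cd63, Cd37 and Tspan32 lie between 10.2 and 658 FPKM, and Tspan33 and Tspan15 reach at most 0.174 FPKM.

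Cd9, an abundant surface protein of platelets that sits beside integrin αIIbβ3, was the ninth most abundant of all 14975 transcripts in control platelets. Its level was 10629, 10555 and 10443 FPKM in control 1, 2 and 3 and 12185, 11494 and 8069.6 FPKM in pre-AML 1, 2 and 3. The controls lay within a narrow range, pre-AML 1 and 2 stood above them and pre-AML 3 below. Cd9 made up between 89.4% and 91.7% of the summed FPKM of the members in every library. Among all 28 tetraspanin genes of the table its part was between 86.4% and 89.1%.

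Pre-AML and control libraries were set against each other in limma-trend on log2(FPKM + 1), a scale that understates changes of low genes, for the 4412 genes whose mean over all libraries reached 1 FPKM. With Benjamini-Hochberg adjustment over all of them, 0 of the 7 tested members had an adjusted p under 0.05, against 0.0227% of all tested genes. At an unadjusted p under 0.05, 0 of 7 members were higher and 0 were lower, where 2.56% and 6.53% of all tested genes were. With limma-voom on estimated reads 0 were called as well, and 1, Cd63, was lower at an unadjusted p under 0.05. With each library scaled to the same FPKM sum, 0 of 8 were called. Cd9 and Cd82 were higher at an unadjusted p under 0.05, as were 332 of 5920 tested genes. Cd82 reached the limit of 1 in that setting only through its pre-AML values, so its p-value adds no support. As a median, the log2 ratio of pre-AML over control was -0.02 for the 7 members and -0.06 for all tested genes. The limit of 1 FPKM left out Cd82, Tspan33 and Tspan15, whose values are given further on.

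**Figure D2:**
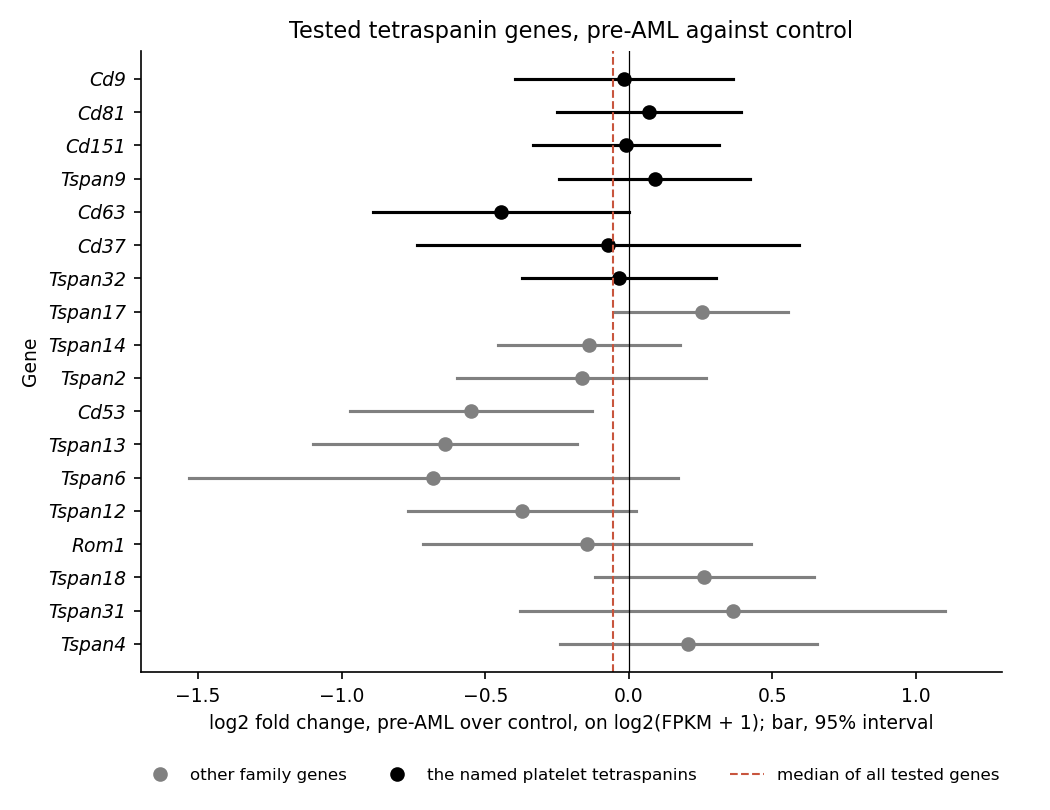
Log2 ratio of pre-AML over control on log2(FPKM + 1) (horizontal axis) for the 7 tested members (black) and the 11 other tested tetraspanin genes (grey), with 95% intervals from limma-trend that are not adjusted for multiple tests. The dashed line is the median of all tested genes (-0.06), and Cd63 is the member farthest from it, at -0.44.

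For Cd9 the log2 ratio was -0.02, with a 95% interval from -0.40 to 0.36 (limma-trend adjusted p = 0.972). The sign depended on pre-AML 3 and on its scaling. Without pre-AML 3 the log2 ratio was 0.17 (limma-trend adjusted p = 0.580), and with each library scaled to the same FPKM sum it was 0.15 (limma-trend adjusted p = 0.532). That scaling raised the median of all tested genes by 0.17 on the log2 scale, and relative to this median Cd9 stood at 0.04 both as deposited and after the scaling. As a part of the summed FPKM, Cd9 held 1.96%, 2.03% and 2.02% in the controls and 2.29%, 2.26% and 2.15% in pre-AML 1, 2 and 3. On this scale all 3 pre-AML libraries were above all 3 controls, whereas the deposited FPKM values overlapped. How many of all genes separate on this scale was not counted. At an unadjusted limma-trend p under 0.05, 332 of 5920 tested genes were higher on it, against 113 of 4412 as deposited.

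Cd81, a tetraspanin found on many kinds of cells and the closest relative of Cd9 among the members, was the member with the next highest level. It had 522, 587 and 609 FPKM in control 1, 2 and 3 and 623, 658 and 527 FPKM in pre-AML 1, 2 and 3. The lowest values of both groups were close to each other and the groups overlapped. Its log2 ratio was 0.07, with a 95% interval from -0.25 to 0.39 (limma-trend adjusted p = 0.852).

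Cd151 and Tspan32 act with integrins, and neither passed the test. Cd151, which binds laminin-binding integrins and is needed for normal αIIbβ3 signalling, had 337, 323 and 354 FPKM in control 1, 2 and 3 and 338, 381 and 293 FPKM in pre-AML 1, 2 and 3. The pre-AML libraries lay on both sides of the controls, and the log2 ratio was -0.01, with a 95% interval from -0.33 to 0.31 (limma-trend adjusted p = 0.985). Tspan32, a tetraspanin of blood cells with a like part in αIIbβ3 signalling, had 13.5, 10.4 and 13.4 FPKM in control 1, 2 and 3 and 11.03, 12.4 and 12.7 FPKM in pre-AML 1, 2 and 3. Its pre-AML values lay within the range of the controls, with a log2 ratio of -0.03 (95% interval from -0.37 to 0.30, limma-trend adjusted p = 0.939). Without pre-AML 3, Cd151 was at 0.09 and Tspan32 at -0.07, and with libraries scaled to the same FPKM sum they were at 0.16 and 0.13.

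Tspan9, which is enriched in megakaryocytes and platelets and has been found with the collagen receptor GPVI, had 86.9, 80.4 and 98.5 FPKM in control 1, 2 and 3. Pre-AML 1, 2 and 3 had 99.0, 101 and 83.2 FPKM. Pre-AML 1 and 2 were above every control and pre-AML 3 was not. The log2 ratio was 0.09, with a 95% interval from -0.24 to 0.42 (limma-trend adjusted p = 0.811). After removal of trends with GC content and gene length it turned to -0.05.

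Cd63 was the member whose groups did not overlap among those tested. CD63 is a protein of lysosomes and dense granules that reaches the platelet surface when these are released. Its level was 33.2, 21.2 and 20.6 FPKM in control 1, 2 and 3 and 18.6, 18.4 and 16.1 FPKM in pre-AML 1, 2 and 3. All pre-AML libraries were below all controls, and control 1 was far above the other two. Control platelets had a mean of 25.0 ± 7.12 FPKM and pre-AML platelets one of 17.7 ± 1.37 FPKM (SD, n = 3 each), which is 0.708 times the control. The log2 ratio was -0.44 (SE 0.19, 95% interval from -0.89 to 0.0013), and the limma-trend adjusted p of 0.522 did not pass the threshold.

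Groups that did not overlap were common in these libraries. Over all tested genes, 12.8% were lower and 6.14% were higher in pre-AML platelets in this sense, beside 1 lower and 0 higher of the 7 tested members. Over 18 alternative settings the log2 ratio of Cd63 was between -0.56 and -0.23, and its adjusted p was between 0.267 and 0.909 from limma. With libraries scaled to the same FPKM sum it was -0.29. The log2 ratio nearest to 0 was the one without control 1, at -0.23 (limma-trend adjusted p = 0.730). In bulk samples like these, fewer cells of a type and less RNA per cell cannot be told apart.

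**Figure D3:**
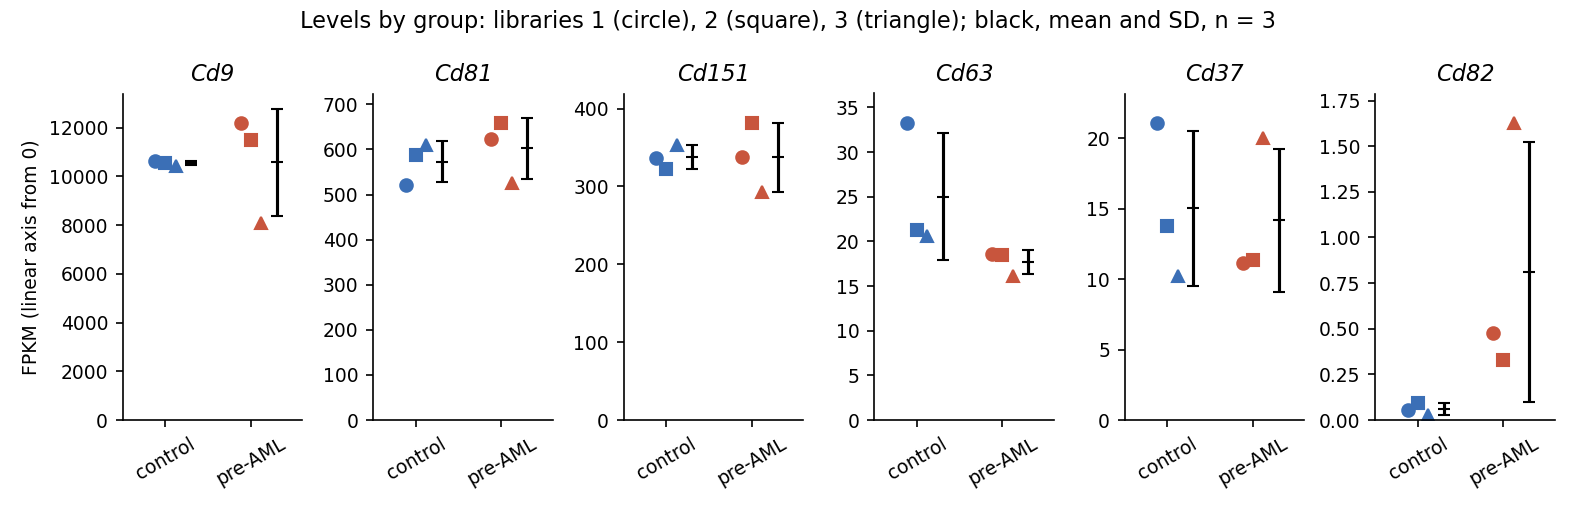
FPKM of 6 members (linear axes from 0) in control (blue) and pre-AML (red) libraries 1 to 3, with the mean and SD (n = 3) in black. Cd63 is below the controls in all pre-AML libraries, Cd82 is above them in all, and pre-AML 3 (triangle) is the lowest of its group for Cd9, Cd81, Cd151 and Cd63 and the highest for Cd37 and Cd82.

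Cd37 and Cd82 are members that are also known from leukocytes. Cd37, a tetraspanin of B cells and other leukocytes, had 21.1, 13.8 and 10.2 FPKM in control 1, 2 and 3 and 11.1, 11.3 and 20.04 FPKM in pre-AML 1, 2 and 3. It was high in control 1 and pre-AML 3, which are from different groups, and the groups overlapped. The log2 ratio was -0.07 with a wide 95% interval, from -0.74 to 0.59 (limma-trend adjusted p = 0.936). Without pre-AML 3 it was -0.33 (limma-trend adjusted p = 0.714), and without control 1 it was 0.19 (limma-trend adjusted p = 0.829).

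Cd82, a widely expressed tetraspanin that is known as a suppressor of metastasis, was near the limit of detection in control platelets. It had 0.0567, 0.0946 and 0.0280 FPKM in control 1, 2 and 3, or 2, 4 and 1 estimated reads. In pre-AML 1, 2 and 3 it had 0.475, 0.331 and 1.63 FPKM, or 19, 15 and 114 estimated reads. All 3 pre-AML libraries were above all 3 controls, as in 7.53% of all genes of the table. Over the summed reads, 7 in control and 148 in pre-AML platelets, the ratio per library size was 15.4, with an exact 95% interval from 7.30 to 39.0. Without pre-AML 3 the ratio was 6.45, from 2.82 to 17.2, over 34 pre-AML reads. These intervals cover counting error only. With no filter on low values, the adjusted p of Cd82 was 0.705 from limma-trend, which did not pass the threshold.

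Markers of leukocytes were also highest in pre-AML 3, the library with the highest Cd82. Of the markers with a control mean under 1 FPKM, the highest value was in pre-AML 3 for 4 of 4 pan-leukocyte, 9 of 9 monocyte and macrophage, 8 of 8 B cell, 7 of 8 T and NK cell, 0 of 7 neutrophil and 0 of 3 erythroid genes. How many of all genes with so low a control mean were highest in pre-AML 3 was not counted. That library had the most genes above 0, 13571 against between 11301 and 12609 in the others. The list of pan-leukocyte genes had 4 of 8 members with a control mean under 1 FPKM, and their summed level was between 0.0230 and 0.344 FPKM in control and 1.05, 1.67 and 23.3 FPKM in pre-AML 1, 2 and 3. The same sum over 9 of 10 monocyte and macrophage markers was between 0.2497 and 0.648 FPKM in control and 5.14, 6.87 and 250 FPKM in pre-AML 1, 2 and 3. All pre-AML libraries were above all controls in both sums. Choosing genes by a low control mean leans that way, here and in the other sums of such genes. The sum over 8 of 9 B cell markers was between 0.158 and 0.903 FPKM in control and 0.209, 4.55 and 61.4 FPKM in pre-AML 1, 2 and 3. The sum over 8 of 9 T and NK cell markers was between 0.205 and 0.631 FPKM in control and 10.6, 5.94 and 20.9 FPKM in pre-AML 1, 2 and 3. Listed at 0 in all controls were 1 of 8 pan-leukocyte, 3 of 10 monocyte and macrophage and 1 of 9 B cell genes. So were 3 of 9 T and NK cell, 4 of 8 neutrophil and 0 of 6 erythroid genes, beside 9.91% of all genes of the table. The markers at 0 in all controls included Cd48, Cd14, Cd3g and Pax5. Cd14 was also at 0 in pre-AML 1, and Pax5 in pre-AML 1 and 2. Over whole lists, the summed level in control and pre-AML platelets was between 759 and 785 and between 816 and 897 FPKM for pan-leukocyte genes, and between 2385 and 2616 and between 2340.3 and 3343 FPKM for monocyte and macrophage genes. It was between 1.64 and 1.88 and between 0.881 and 229 FPKM for B cell genes, and between 19.1 and 28.9 and between 33.9 and 43.5 FPKM for T and NK cell genes. Some markers of these lists, among them Laptm5 at 739 ± 10.8 FPKM and Lyz2 at 2491 ± 117 FPKM (SD, n = 3), were already found in control platelets. Laptm5 made up most of the whole pan-leukocyte sum and Lyz2 most of the whole monocyte and macrophage sum. The groups of both genes overlapped. Sums of 7 of 8 neutrophil markers were between 0.723 and 1.65 FPKM in control and between 0.537 and 1.32 FPKM in pre-AML platelets, and sums of 3 of 6 erythroid markers were between 0.358 and 1.06 FPKM and between 0.217 and 2.91 FPKM. The part of leukocyte RNA in the values of Cd82 and Cd37 was not tested.

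**Figure D4:**
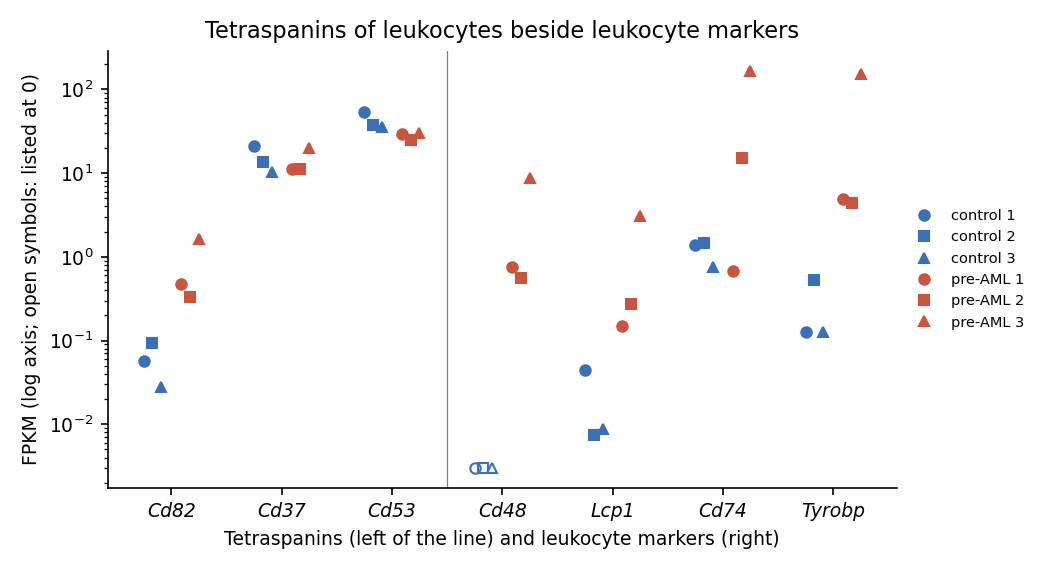
FPKM of Cd82, Cd37 and Cd53 (left of the line) and of 4 leukocyte markers (right) in each library on a log axis, with control in blue, pre-AML in red and open symbols for values listed at 0. Cd82 and the markers Cd48, Lcp1 and Tyrobp are higher in all pre-AML libraries than in all controls and highest in pre-AML 3. The marker Cd74 overlaps between the groups, at 0.671 FPKM in pre-AML 1, and Cd53 is lower in all pre-AML libraries. Without overlap, 3 of 8 pan-leukocyte, 4 of 10 monocyte and macrophage and 0 of 9 B cell genes are higher. So are 5 of 9 T and NK cell, 0 of 8 neutrophil and 1 of 6 erythroid genes, beside 7.53% of all genes.

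Tspan33 and Tspan15 belong to the TspanC8 group of tetraspanins, which bind the membrane protease ADAM10 and bring it to the cell surface. Tspan33 was at 0.0492, 0.0274 and 0 FPKM in control 1, 2 and 3 and at 0.174, 0.0383 and 0 FPKM in pre-AML 1, 2 and 3, from 0 to 12 estimated reads. Tspan15 was at 0, 0.0726 and 0 FPKM in the controls and at 0.115, 0.0338 and 0 FPKM in pre-AML platelets, from 0 to 13 estimated reads. Its nonzero estimates lay between 0.178 and 0.474 from a whole number, so the reads of Tspan15 are approximate. In a library with no read, a level of up to 3 reads would remain unseen, which is 0.0486 FPKM of Tspan33 in control 3 and 0.0248 FPKM in pre-AML 3, for counting error only. The groups of both genes overlapped and no difference was detectable at this depth.

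Other TspanC8 genes were abundant in the same libraries. In control platelets Tspan17 had 133 ± 9.77 FPKM and Tspan14 had 119 ± 5.09 FPKM (SD, n = 3), whereas Tspan5 had 0.0326 ± 0.0234 FPKM. Tspan14 and Tspan17 made up between 99.89% and 100% of the summed FPKM of the 5 TspanC8 genes of the table, in which Tspan10 was not found. Tspan17 had 134, 122 and 141 FPKM in control 1, 2 and 3 and 172, 153 and 149.7 FPKM in pre-AML 1, 2 and 3. All pre-AML libraries were above the controls, with a log2 ratio of 0.25 (95% interval from -0.05 to 0.56, limma-trend adjusted p = 0.526). It was 0.05 after removal of trends with GC content and gene length and 0.43 with libraries scaled to the same FPKM sum. The log2 ratio of Tspan14 was -0.14 (limma-trend adjusted p = 0.678). Adam10 had 36.6, 28.3 and 31.1 FPKM in control 1, 2 and 3 and 27.2, 25.6 and 18.3 FPKM in pre-AML 1, 2 and 3. It was below the controls in all pre-AML libraries, and its log2 ratio of -0.43 did not pass the threshold (limma-trend adjusted p = 0.522) and was -0.22 after removal of these trends.

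**Figure D5:**
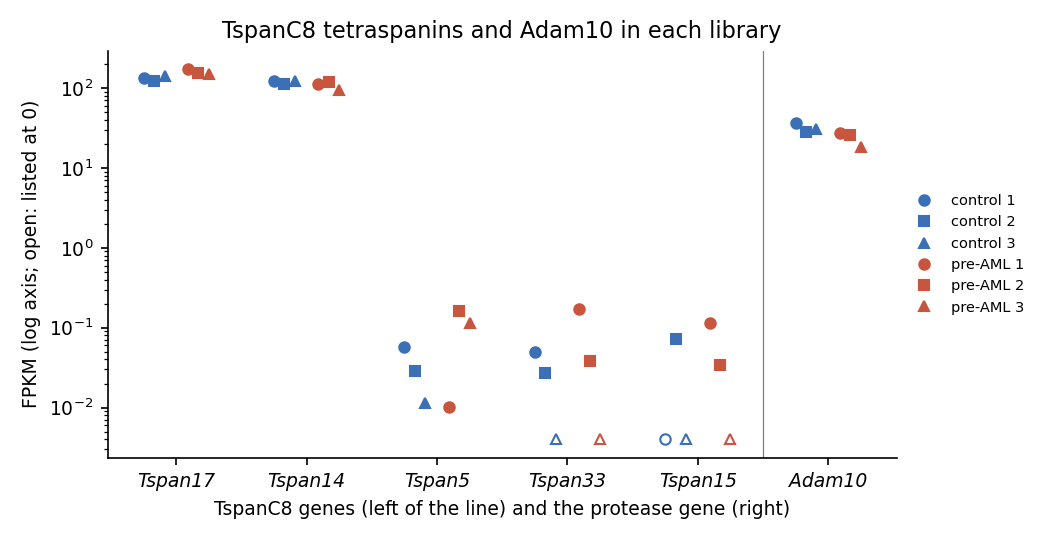
FPKM of 5 TspanC8 genes (left of the line) and of Adam10 (right) in each library on a log axis, with control in blue, pre-AML in red and open symbols for values listed at 0. Tspan17 and Tspan14 lie between 94.0 and 172 FPKM, and Tspan5, Tspan33 and Tspan15 reach at most 0.174 FPKM.

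Beyond the 10 members, 18 other tetraspanin genes were in the table, of which 11 had a mean of at least 1 FPKM. Of these, 0 had an adjusted p under 0.05 from limma-trend or limma-voom. At an unadjusted p under 0.05, 0 were higher and 2 were lower (2.56% and 6.53% of all tested genes), and their median log2 ratio was -0.15. The genes with groups that did not overlap were Cd53, Tspan12 and Tspan13, which were lower, and Tspan17 and Tspan18, which were higher, beside 12.8% lower and 6.14% higher of all tested genes. Cd53, a tetraspanin of leukocytes, had 54.4, 37.3 and 35.7 FPKM in control 1, 2 and 3 and 29.6, 25.1 and 30.1 FPKM in pre-AML 1, 2 and 3. It was below the controls in pre-AML 3 as well, the library where most leukocyte markers were highest. Its log2 ratio was -0.55 (SE 0.18, limma-trend adjusted p = 0.522), and it was -0.23 after removal of trends with GC content and gene length.

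Tspan13 had 10.2, 7.07 and 6.18 FPKM in control 1, 2 and 3 and 4.25, 5.65 and 3.92 FPKM in pre-AML 1, 2 and 3, a log2 ratio of -0.64 (SE 0.20, limma-trend adjusted p = 0.522). Tspan2 was at 42.8 ± 1.81 FPKM in control platelets and 38.8 ± 9.36 FPKM (SD, n = 3 each) in the pre-AML group. Tspan6 was at 7.73 ± 3.41 FPKM and 4.55 ± 2.27 FPKM, and Tspan12 at 5.15 ± 0.907 FPKM and 3.75 ± 0.741 FPKM (SD, n = 3 each). Rom1, Tspan18, Tspan4 and Tspan31 were low, with group means between 1.05 and 2.06 FPKM.

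The partners of tetraspanins were given by a list of 19 genes, all in the table, of which 16 were tested. With limma-trend and with limma-voom, 0 had an adjusted p under 0.05. At an unadjusted p under 0.05, 0 were higher and 4 were lower in pre-AML platelets, namely Itgb1, Itga2, Adam10 and Sdcbp, beside 6.53% lower of all tested genes. These 4 and Gp6 were lower in all pre-AML than in all control libraries, and 0 of the 16 were higher in this sense, where 12.8% and 6.14% of all tested genes were. Of the 3 partners below the limit, Itga5 was higher in this sense. The median log2 ratio of the partners was -0.25, which moved to -0.08 with libraries scaled to the same FPKM sum and to -0.11 without pre-AML 3. After removal of trends with GC content and gene length, 0 of the 16 were lower at an unadjusted p under 0.05.

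Among the surface partners, Itga2b and Itgb3, the genes of integrin αIIbβ3, had log2 ratios of 0.12 and -0.19. Itgb1, for the β1 chain shared by laminin and collagen receptors, was at 273 ± 26.1 FPKM in the control and 208 ± 35.9 FPKM in the pre-AML group (SD, n = 3 each), a log2 ratio of -0.40 (limma-trend adjusted p = 0.522). Its α partners Itga6 and Itga2 had -0.31 and -0.37. Gp6, for GPVI, was at 148 ± 7.97 and 112 ± 25.5 FPKM (SD, n = 3), a log2 ratio of -0.43 (limma-trend adjusted p = 0.522). The values were -0.16 for Gp1ba of the von Willebrand receptor, -0.34 for Clec1b, the podoplanin receptor CLEC-2, -0.18 for F11r, an adhesion molecule of junctions, and 0.34 for Cd36, a scavenger receptor. Without pre-AML 3 the log2 ratio was -0.25 for Itgb1, -0.11 for Itga6, -0.22 for Itga2, -0.22 for Gp6, -0.11 for Clec1b and 0.10 for Cd36. After removal of trends it was -0.20 for Itgb1, -0.19 for Itga6, -0.16 for Itga2, -0.22 for Gp6, -0.0023 for Clec1b and 0.72 for Cd36. Igsf8 and Ptgfrn, which encode the main immunoglobulin-type partners of CD9 and CD81 in other cells, were below the limit, with control means of 0.0532 and 0.0262 FPKM. Igsf8 was at 0, 0.0588 and 1.44 FPKM in pre-AML 1, 2 and 3, and Ptgfrn was at most at 0.0211 FPKM there. Itga5, for the α chain of a fibronectin receptor, was at 0.138, 0.0576 and 0.204 FPKM in control 1, 2 and 3 and at 0.472, 0.296 and 0.582 FPKM in pre-AML 1, 2 and 3, above all controls. With no filter on low values its limma-trend adjusted p was 0.705.

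Among the partners inside the cell, Sdcbp encodes syntenin, an adaptor that binds the tail of CD63. It had 291, 267 and 291 FPKM in control 1, 2 and 3 and 246, 221 and 151 FPKM in pre-AML 1, 2 and 3. Its groups did not overlap, with a log2 ratio of -0.48 (SE 0.19, limma-trend adjusted p = 0.522). Lamp1 and Lamp2, which lie with CD63 in lysosome membranes, had log2 ratios of -0.05 and -0.42. Without pre-AML 3 that of Lamp2 was -0.14 and that of Sdcbp was -0.28, and after removal of trends they were -0.13 and -0.26. Selp, for the α granule protein P-selectin, was at -0.06. Adam17, another membrane protease, was at 0.09.

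For the pair of members with the highest levels, the tested genes with the most similar pattern were sought by Pearson correlation of log2(FPKM + 1) over the 6 libraries. For Cd9 these were Ctla2a (r = 0.990), 5530601H04Rik (r = 0.979) and Grtp1 (r = 0.975). For Cd81 they were Tmem40 (r = 0.981), Sqstm1 (r = 0.980) and Txlnb (r = 0.980). The genes of a library share its scaling, and without pre-AML 3 r was 0.944 for Ctla2a, 0.882 for 5530601H04Rik and 0.894 for Grtp1 with Cd9. With Cd81 it was 0.973 for Tmem40, 0.972 for Sqstm1 and 0.973 for Txlnb. These are the highest values among the tested genes and describe 6 libraries. Of these genes, 5530601H04Rik, Grtp1 and Txlnb lay near the limit of 1 FPKM, with means of 1.31, 1.09 and 1.96 FPKM.

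The counting is not stated to use strand, and the exons of some members share bases with genes on the opposite strand. The shared bases were 218 for Cd9 (with Gm26728), 193 for Cd151 (with Gm10575), 104 for Cd81 (with R74862), 271 for Tspan32 (with Tspan32os) and 13 for Cd37 (with Tead2), in union exon lengths of 2044, 2741, 2879, 6234 and 3522 bases. Reads in these bases cannot be assigned to one of the genes.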

How the data were processed

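Platelet RNA was sequenced from 3 control and 3 pre-AML libraries (SMART-Seq2 cDNA, Nextera XT). The authors mapped reads to mm10 with STAR and used DESeq2. The counting program and annotation are not given in the sources used here. The authors deposited FPKM values, one per gene and library, and the library sizes behind them follow a scaling of their own, 1.31 times the reads in pre-AML 3 and between 0.983 and 1.01 times in the others.

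Reads were estimated from FPKM and the union of exons in GENCODE M21 (GRCm38). Of values under 30 reads, between 83.4% and 85.8% per library lay within 0.02 of a whole number. On 2 kb, 3 reads are between 0.0643 and 0.128 FPKM. Genes whose mean reached 1 FPKM were compared on log2(FPKM + 1) by limma-trend with no covariate, in limma 3.58.1 under R 4.3.3. P-values were adjusted by Benjamini-Hochberg with 0.05 as threshold, and the fit was tested on simulated data. Alternatives were other pseudocounts, filters, scalings, removal of length and GC trends (loess), array weights, limma-voom on estimated reads, the replicate number as a block and leaving out each library. Proteins were translated and aligned with Biopython 1.88 (BLOSUM62).

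All members, and genes of the family and partner lists at 1 FPKM or more, are named. Members and lists were chosen with earlier results of these data known. Cd48, Lcp1, Tyrobp, Cd74, Cd14, Cd3g, Pax5, Laptm5 and Lyz2 were picked from the marker lists after their values were seen. So were Tspan5, Itga5, Igsf8 and Ptgfrn from below the limit.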

Additional observations from a re-analysis of the deposited data

How the results depend on the processing

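Under all 18 alternatives 0 members, 0 other tetraspanins and 0 partners had an adjusted p under 0.05, and tested genes of these lists that are not named below kept their direction where they were tested (those with a mean under 5 FPKM were not tested under the stricter filter). Over all genes 1 was called, against 0 with no filter, with a mean of at least 5 FPKM, with equal FPKM sums, with scaling to estimated reads and with limma-voom, 2 with array weights (which did not converge), and between 0 and 2 when single libraries were left out, with 2 without pre-AML 3. Some log2 fold changes near 0 changed sign. With equal FPKM sums these were Cd9 0.15, Cd151 0.16, Cd37 0.094, Tspan32 0.13, Tspan2 0.0024, Tspan14 0.031, Gp1ba 0.011, Lamp1 0.12 and Selp 0.11. Scaled to estimated reads they were Cd9 0.12, Cd151 0.12, Cd37 0.056, Tspan32 0.090, Lamp1 0.080 and Selp 0.066, and scaled by the median of ratios Cd9 0.071, Cd151 0.079, Cd37 0.013, Tspan32 0.048, Lamp1 0.036 and Selp 0.023. Quantile normalization gave Cd151 0.045, Cd37 0.014, Tspan32 0.025, Lamp1 0.11 and Selp 0.051. Array weights gave Cd9 0.12, Cd151 0.13, Tspan32 0.0013, Tspan4 -0.0064, Gp1ba 0.034 and Lamp1 0.0074. Removal of length and GC trends gave Cd9 0.051, Tspan9 -0.048, Tspan2 0.065 and Itga2b -0.048, with or without the replicate block. Leaving out single libraries gave ranges of -0.13 to 0.17 for Cd9, -0.10 to 0.089 for Cd151, -0.33 to 0.19 for Cd37, -0.15 to 0.03 for Tspan32, -0.30 to 0.043 for Tspan2, -0.28 to 0.0072 for Gp1ba, -0.094 to 0.023 for Lamp1, -0.13 to 0.060 for Selp and -0.14 to 0.24 for Adam17. The cause was not tested.

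The deviations of same-numbered control and pre-AML libraries from their group means had correlations of -0.04, -0.12 and -0.17. Deviations within a group of 3 are tied to each other and pre-AML 3 stood far apart, so this check cannot exclude pairing. The numbers were not taken as pairs in the main fit. With the replicate block 0 members and 1 gene in all were called, and 1 partner instead of 4 was lower at an unadjusted p under 0.05. Partners lower in this sense were 0 without control 1, 0 without control 3, 2 without control 2, 7 without pre-AML 1, 2 without pre-AML 2 and 3 without pre-AML 3. Depth limits Cd82, Tspan33 and Tspan15, for which 3 reads are between 0.0157 and 0.0851 FPKM, values that are approximate for Tspan15.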
